A study of Mus musculus with 5 samples.

Results

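The genes described here encode proteins that process ribosomal RNA (rRNA), the RNA that forms the core of the ribosome. The rule that takes them uses annotation and a floor on total counts, not differences between groups. A gene was taken when the deposited table annotated it with the term "rRNA processing", its symbol did not begin with Rpl, Rps or Mrp, and it had at least 50 estimated counts over the 5 libraries. The term was held by 132 genes. Of these, 15 carried ribosomal protein symbols and were set aside, and Cdkn2a, Fbll1 and Tchhl1 had 0 counts. The remaining 114 of 21878 gene symbols are the members, and all 114 passed the filter on low counts and were tested. The table also annotated 82 of the 114 to the nucleolus and 12 to the mitochondrion, and placed 27 in the KEGG pathway of ribosome biogenesis.

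The mouse macrophage-like line RAW264.7 was sequenced in 3 groups: with vector (1 library), with LPS at a labelled dose of 0.5 mg/mL (2 libraries), and with that LPS dose combined with 1 μM arctigenin (2 libraries). LPS, a lipid of the outer bacterial membrane, activates macrophages, and arctigenin is a lignan made by plants. The labels give no treatment time and do not say what the cells with vector received. They name no separate cultures for the replicates, and p-values are therefore a measure of the spread between these samples alone. No library held arctigenin without LPS. Totals lay between 19836203 and 21578355 estimated counts. All 10 macrophage markers were present, at a summed level of 6115 to 8310 CPM (estimated counts scaled to a common library size, with TMM normalisation), although Mertk stayed at or below 1.97 CPM and Csf1r was at 480 CPM in vector against 77.7 to 110 CPM in the other libraries. Summed markers of T cells, B cells and epithelial cells stayed at or below 0.373 CPM, those of fibroblasts lay between 0.677 and 5.34 CPM, and those of endothelial cells between 1.04 and 3.30 CPM. Those of neutrophils lay between 3.82 and 163 CPM, mostly S100a8, with S100a9 between 0.784 and 1.16 CPM and Ly6g at 0.

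Cells make rRNA in the nucleolus as a long precursor transcribed by RNA polymerase I. Small nucleolar ribonucleoproteins (snoRNPs) and separate enzymes modify the precursor, large assembly complexes fold and cut it, and the RNA exosome trims its ends and degrades the spacers. Mitochondria process and modify their own rRNAs with a separate set of proteins. The libraries measured mRNA of these factors, so the values below are mRNA levels and not amounts of rRNA or rates of its processing.

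The members took 0.790% of all estimated counts in vector, 0.451% and 0.457% in the LPS libraries, and 0.531% and 0.524% in the libraries with LPS and arctigenin. Their summed level was 6790 CPM in vector, 4650 ± 79.0 CPM (SD, n = 2) with LPS and 5563 ± 113 CPM (SD, n = 2) with LPS and arctigenin. Both LPS libraries therefore stood lowest, both libraries with arctigenin stood between them and vector, and the 3 groups did not overlap. In such bulk samples, fewer cells of a type and less RNA per cell cannot be told apart. Divided by transcript length, levels in vector ran from 0.761 CPM per kb for Pih1d2 and 0.934 for Samd15 to 133 for Nsa2, 155 for Fbl and 179.8 for Pa2g4.

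**Figure D1:**
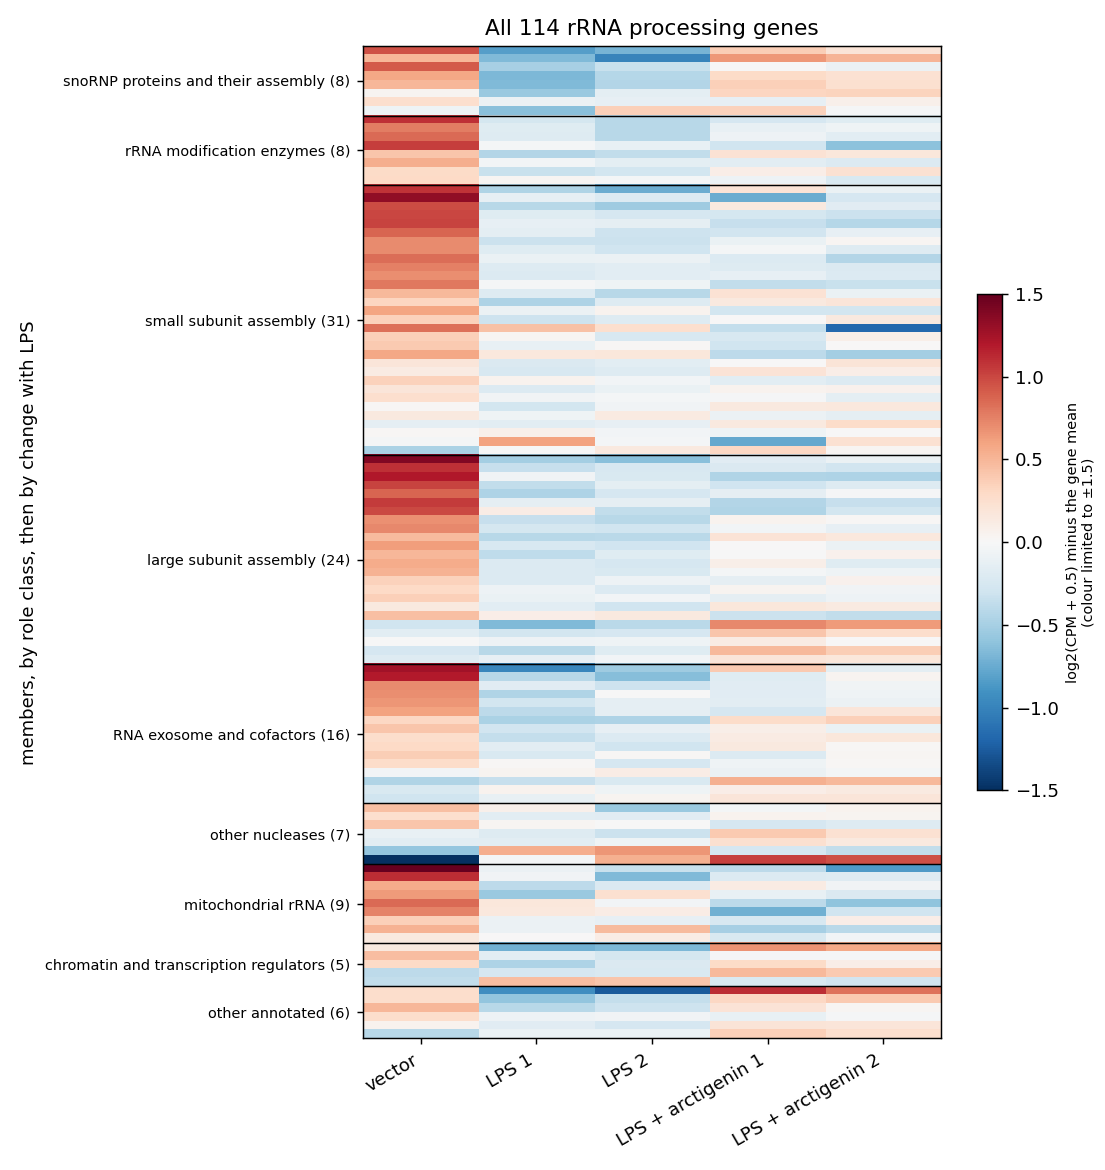
Levels of the 114 members in each of the 5 libraries, as log2(CPM + 0.5) minus the mean of that gene over the libraries, so that red is above and blue below the gene's own mean. Members are grouped by role, with the number in each role class in parentheses, and within a class the largest fall with LPS is at the top. The vector column is red for most members, and the arctigenin columns are red again for most snoRNP proteins.

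With LPS, rRNA processing genes fell broadly. Of the 114 members, 80 were lower than in vector and 5 were higher at an adjusted p under 0.05 (edgeR quasi-likelihood, Benjamini-Hochberg adjusted), and 29 were not called. Across all 11575 genes tested, 24.9% were lower and 27.1% were higher. The median member changed by −0.66 on the log2 scale, against −0.01 over all genes tested, and 99 of the 114 members had a fitted change below 0. A fall of at least 1 on the log2 scale was called for 30 members, against 7.23% of all genes, and a rise of that size for 2, against 9.14%. With 1 vector library, replicate spread could be estimated only in the other 2 groups.

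When arctigenin was added to LPS, more members were higher than lower. In LPS with arctigenin against LPS alone, 45 members (39.5%) were higher, against 22.8% of all genes tested. Another 13 (11.4%) were lower, against 22%. The other 56 were not called, and the median member changed by 0.19 on the log2 scale, against −0.00 over all genes. The rises reached 1 on the log2 scale in 6 members, against 3.54% of all genes, and the falls did so in 1, against 4.27%. In the 4 alternatives that moved these counts most, fewer calls were made among the members and among all genes. Without LPS replicate 1, 26 members (22.8%) were higher and 5 (4.39%) lower, against 14.6% and 13.4% of all genes, and without LPS replicate 2 they were 29 (25.4%) and 8 (7.02%), against 15.8% and 14.8%. DESeq2 called 29 and 7, against 17.7% and 16.8% of all genes, and counts restricted to curated RefSeq transcripts gave 24 and 6, against 12.6% and 10.6%.

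Beside vector, the libraries with LPS and arctigenin still had 63 members lower, against 25.7% of all genes tested, and 14 higher, against 30.4%. The median member stood at −0.44 on the log2 scale. A fall of at least 1 on that scale was called for 25 members, against 10.2% of all genes, and a rise of that size for 1, against 9.94%. The 3 comparisons share libraries, so their values are given side by side and were not tested against each other.

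**Figure D2:**
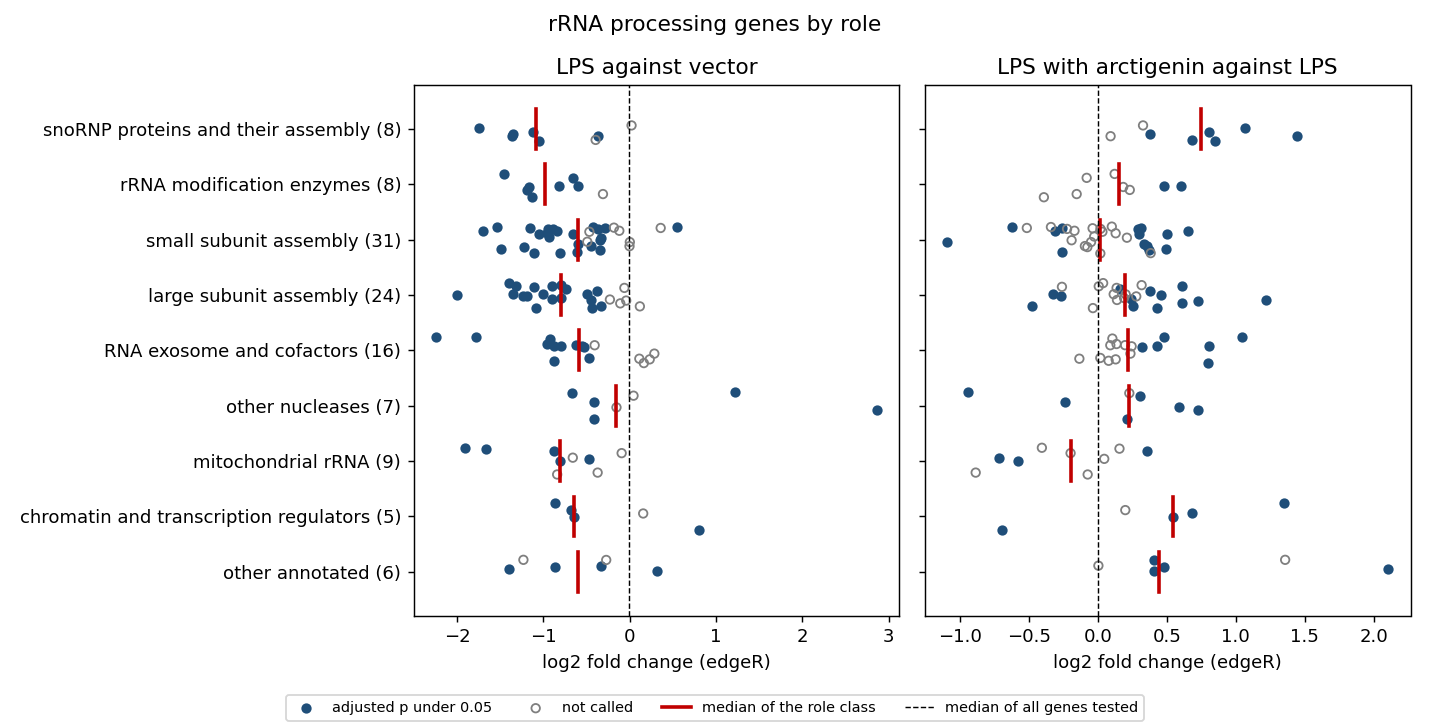
Fitted log2 fold change of each member by role class, for LPS against vector (left) and LPS with arctigenin against LPS (right). Filled points passed an adjusted p under 0.05, open points did not, red bars are class medians and the dashed line is the median of all genes tested. With LPS the class medians run from −1.09 for snoRNP proteins to −0.15 for other nucleases, and with arctigenin from −0.20 for mitochondrial rRNA factors to 0.74 for snoRNP proteins.

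The snoRNP proteins, which carry the guide RNAs for rRNA modification, had the lowest median of the role classes with LPS and the highest with arctigenin. Of 8 members, 6 fell with LPS (median −1.09) and 6 rose with arctigenin (median 0.74), with 0 calls in the other direction. Of all genes tested, 24.9% were lower with LPS and 22.8% higher with arctigenin. Beside vector, 3 of the 8 were lower and 0 higher with LPS and arctigenin, against 25.7% and 30.4% of all genes. The median stood at −0.24.

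Fbl encodes fibrillarin, the methyltransferase of the box C/D snoRNPs that methylate rRNA riboses. It stood at 180.04 CPM in vector, 75.5 and 89.6 CPM with LPS, and 147 and 142 CPM with LPS and arctigenin. Both LPS libraries were below both libraries with arctigenin, and vector was above all of them. Fbl fell 2.18-fold with LPS (log2 −1.13 ± 0.10 (SE), adjusted p = 9.44e-06) and was 1.75-fold higher with arctigenin than with LPS alone (log2 0.80 ± 0.08 (SE), adjusted p = 5.83e-05).

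The other snoRNP class, box H/ACA, converts uridine in rRNA to pseudouridine, and its core is formed by Dkc1, Nhp2, Nop10 and Gar1. Dkc1, the pseudouridine synthase dyskerin, stood at 48.4 CPM in vector, 13.8 and 15.2 CPM with LPS, and 32.1 and 28.5 CPM with LPS and arctigenin. Its level fell 3.34-fold with LPS (log2 −1.74 ± 0.12 (SE), adjusted p = 2.13e-06) and was 2.09-fold higher with arctigenin (log2 1.06 ± 0.11 (SE), adjusted p = 5.07e-05). The groups did not overlap, and the libraries with arctigenin stayed below vector (log2 −0.68 ± 0.12 (SE), adjusted p = 0.000913). The Dkc1 gene overlaps Mpp1 on the other strand, and counted over curated transcripts only its arctigenin difference was 0.57 on the log2 scale with an adjusted p of 0.262 (edgeR).

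Nop10, the smallest subunit of that core, stood at 23.98 CPM in vector, 10.4 and 8.23 CPM with LPS, and 26.7 and 24.04 CPM with LPS and arctigenin. The arctigenin libraries were at or above the vector level, and both LPS libraries were below it. Nop10 was 2.57-fold lower with LPS than in vector and 2.72-fold higher with arctigenin than with LPS (log2 1.44 ± 0.14 (SE), adjusted p = 3.55e-05). Nhp2, an RNA-binding subunit of the core, stood at 85.04 CPM in vector, 37.8 and 44.1 CPM with LPS, and 76.7 and 70.9 CPM with LPS and arctigenin. It fell 2.08-fold with LPS and rose 1.80-fold with arctigenin (log2 0.85 ± 0.09 (SE), adjusted p = 7.43e-05), with no overlap between groups, although its gene overlaps Rmnd5b on the other strand.

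Gar1 is the remaining core subunit. Its call with arctigenin was lost with DESeq2 (adjusted p = 0.0617), with a length and GC correction (0.0544, edgeR) and without 1 library. Gar1 stood at 61.7 CPM in vector, 22.8 and 25.7 CPM with LPS, and 32.3 and 30.5 CPM with LPS and arctigenin. It was 2.55-fold lower with LPS than in vector (log2 −1.35 ± 0.11 (SE), adjusted p = 6.43e-06). Its arctigenin libraries lay above the LPS libraries but near them, with log2 0.37, adjusted p = 0.013, and without LPS replicate 1 the adjusted p was 0.131. The H/ACA assembly factor Naf1 was at 27.8 CPM in vector, 21.8 and 21.3 CPM with LPS, and 21.3 and 24.6 CPM with LPS and arctigenin. The arctigenin and LPS libraries of Naf1 overlapped (log2 0.09, adjusted p = 0.545), and its LPS difference of −0.37 on the log2 scale, with an adjusted p of 0.0405, was not called without LPS replicate 1 (0.119) or LPS replicate 2 (0.141). Pih1d1, whose gene overlaps Aldh16a1 on the other strand, encodes a subunit of the chaperone complex that helps build box C/D snoRNPs. It was higher with arctigenin (log2 0.68, adjusted p = 0.0036) but not over curated transcripts only (log2 0.19, adjusted p = 0.789).

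**Figure D3:**
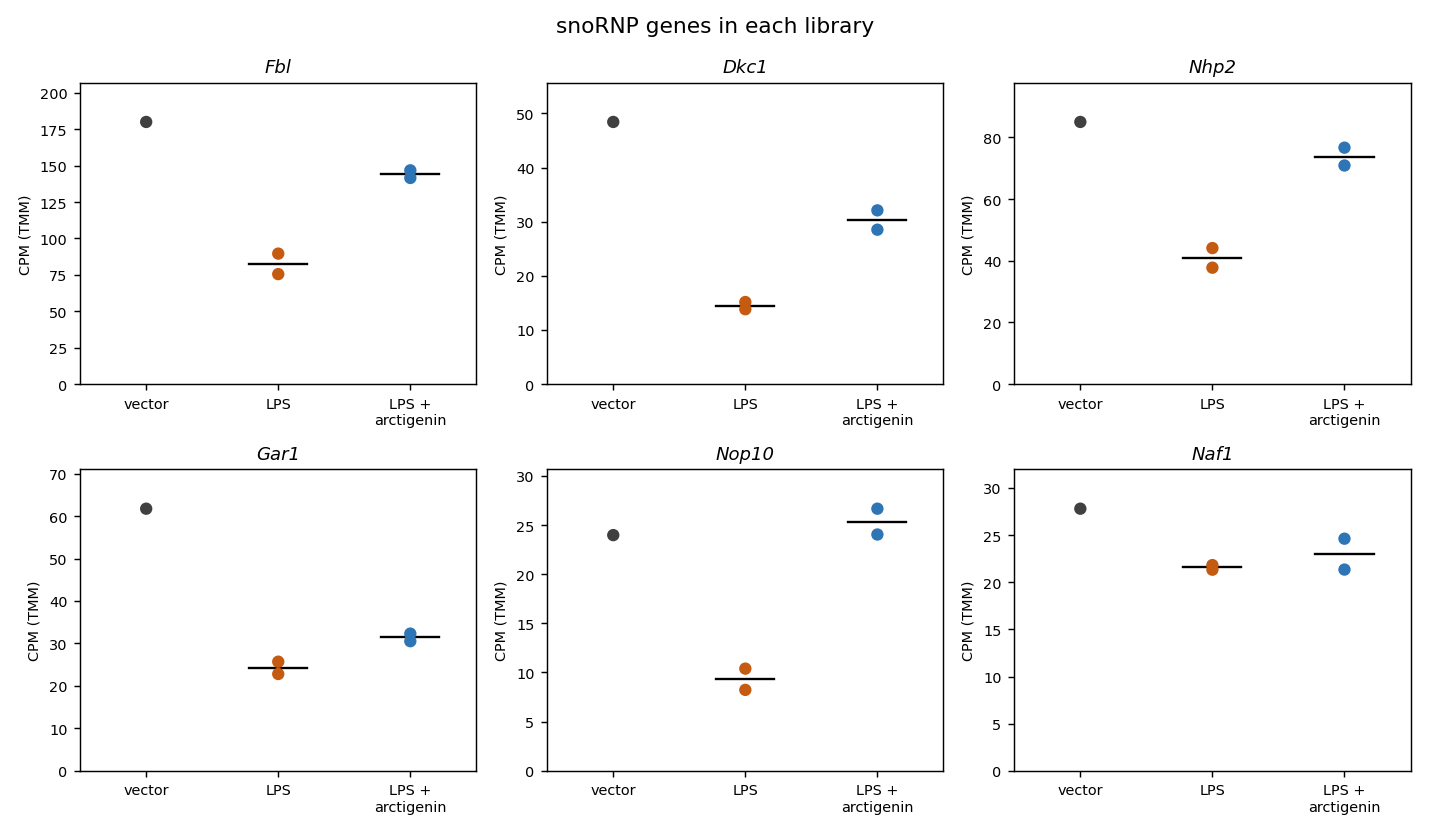
CPM of 6 snoRNP members in the single vector library, the 2 LPS libraries and the 2 libraries with LPS and arctigenin. Points are libraries and black lines are means of 2. In the panels of Fbl, Dkc1, Nhp2, Gar1 and Nop10 the LPS points are the lowest of each panel, while for Naf1 they lie beside the arctigenin points.

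A further class holds rRNA-modifying enzymes outside the snoRNP core. Of its 8 members, 7 were lower and 0 higher with LPS (median −0.98), against 24.9% and 27.1% of all genes tested. With arctigenin 2 (25%) were higher and 0 lower (median 0.15), beside 22.8% and 22% of all genes. Nat10, which acetylates cytidines of small subunit rRNA, stood at 57.8 CPM in vector, 22.3 and 19.98 CPM with LPS, and 22.4 and 23.5 CPM with LPS and arctigenin. Its vector value lay far above the other 4 libraries, which lay close together (log2 −1.45 ± 0.12 (SE), adjusted p = 4.25e-06 with LPS, and log2 0.12, adjusted p = 0.377 with arctigenin against LPS). Nop2, a cytosine methyltransferase of large subunit rRNA, was at 64.2 CPM in vector, 30.99 and 26.5 CPM with LPS, and 33.5 and 31.7 CPM with LPS and arctigenin. It was 2.24-fold lower with LPS (log2 −1.16 ± 0.12 (SE), adjusted p = 2.35e-05), and its arctigenin difference did not pass the threshold (log2 0.18, adjusted p = 0.183). Emg1, which methylates a pseudouridine of small subunit rRNA, rose from 51.5 ± 1.94 CPM (SD, n = 2) with LPS to 78.2 ± 2.06 CPM (SD, n = 2) with arctigenin (log2 0.60 ± 0.08 (SE), adjusted p = 0.00016), beside log2 −0.82, adjusted p = 3.32e-05 for LPS against vector. The Emg1 gene overlaps Lpcat3 on the other strand. The second member that rose with arctigenin was the guanosine methyltransferase Wbscr22 (log2 0.48, adjusted p = 0.0029), whose gene overlaps Dnajc30 on the other strand.

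Small subunit assembly factors were the largest class, with 31 members, many of them parts of the processome that forms on the young precursor. With LPS 23 were lower and 1 was higher (median −0.60), against 24.9% and 27.1% of all genes tested. With arctigenin 9 (29.0%) were higher and 5 (16.1%) lower (median 0.02), near the 22.8% and 22% of all genes tested. Utp20, a very large scaffold protein of the processome, was at 95.2 CPM in vector, 32.4 and 26.4 CPM with LPS, and 51.3 and 41.4 CPM with LPS and arctigenin. Both LPS libraries were lowest, and the arctigenin libraries lay between them and vector (log2 −1.69 ± 0.15 (SE), adjusted p = 1.53e-05 with LPS, log2 0.66 ± 0.13 (SE), adjusted p = 0.0032 with arctigenin). Nol6, another processome protein, fell 2.82-fold with LPS (log2 −1.49, adjusted p = 5e-05), and its arctigenin difference (log2 0.49, adjusted p = 0.025) was not called without LPS replicate 1, LPS replicate 2 or LPS with arctigenin replicate 1, where the adjusted p was 0.0846, 0.146 and 0.144. Tsr2, known in yeast as a chaperone of a small subunit protein, fell 2.91-fold with LPS (log2 −1.54, adjusted p = 0.000165), and its gene overlaps Fgd1 on the other strand.

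In the same class, several processome proteins were low with LPS and stayed low with arctigenin. Wdr43 was at 205 CPM in vector, 106 and 108 CPM with LPS, and 106 and 104 CPM with LPS and arctigenin. Its 4 LPS-treated libraries lay within a few CPM of each other and far below vector (log2 −0.94, adjusted p = 3.24e-06 with LPS, log2 −0.03, adjusted p = 0.749 with arctigenin against LPS). Utp18, another processome protein, was at 82.5 CPM in vector, 36.04 and 34.3 CPM with LPS, and 34.01 and 32.7 CPM with LPS and arctigenin (log2 −1.23, adjusted p = 4.64e-06, then log2 −0.08, adjusted p = 0.51). Pdcd11, the mammalian counterpart of the yeast processing factor Rrp5, was at 40.2 CPM in vector, 29.8 and 30.1 CPM with LPS, and 20.1 and 18.6 CPM with LPS and arctigenin. The arctigenin libraries of Pdcd11 were the lowest, below both LPS libraries (log2 −0.63 ± 0.10 (SE), adjusted p = 0.000701). Its LPS difference (log2 −0.42, adjusted p = 0.0104) was not called without LPS replicate 1 (adjusted p = 0.0647) or LPS replicate 2 (0.0542), and the gene overlaps Calhm2 on the other strand.

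Rcl1, a processome protein related to RNA cyclases, had the largest fall with arctigenin among the members. It stood at 29.7 CPM in vector, 22.5 and 19.7 CPM with LPS, and 12.8 and 7.01 CPM with LPS and arctigenin. The arctigenin libraries were below the LPS libraries but far apart from each other (log2 −1.09 ± 0.24 (SE), adjusted p = 0.00814). Without LPS replicate 1 the adjusted p was 0.0554, and without LPS with arctigenin replicate 2 the difference shrank to −0.72 on the log2 scale.

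Of 24 large subunit assembly factors, 19 were lower and 0 higher with LPS (median −0.80), against 24.9% and 27.1% of all genes tested. With arctigenin 10 (41.7%) were higher and 3 (12.5%) lower (median 0.19), against 22.8% and 22% of all genes. Rrp15, a precursor particle protein, was at 43.4 CPM in vector, 11.2 and 10.4 CPM with LPS, and 14.4 and 15.3 CPM with LPS and arctigenin. All 4 LPS-treated libraries were far below vector, and the drop with LPS was 4.01-fold (log2 −2.00 ± 0.13 (SE), adjusted p = 1.24e-06). Its smaller arctigenin difference (log2 0.46, adjusted p = 0.0121) had an adjusted p of 0.0858 without LPS replicate 2. Pes1, Bop1 and Wdr12 form the PeBoW complex, which is needed to mature the large subunit rRNAs, and their fitted changes with LPS were not tested against each other. The change was −0.90 on the log2 scale for Pes1 (adjusted p = 1.33e-05), −0.38 for Bop1 (adjusted p = 0.0189, and 0.121 without LPS replicate 2) and −1.40 for Wdr12 (adjusted p = 3.03e-06). With arctigenin Bop1 was higher (log2 0.38, adjusted p = 0.00895, and 0.0973 without LPS replicate 2), Wdr12 was not called (log2 0.04, adjusted p = 0.781), and Pes1 differed by 0.24 with an adjusted p of 0.0242. Pes1 was then not called when LPS replicate 1 (0.0862), LPS replicate 2 (0.152) or LPS with arctigenin replicate 1 (0.0953) was left out. All 3 genes overlap another gene on the other strand, and Wdr12 drew at most 27.3% of its counts from curated transcripts, over which its LPS difference was −0.95 with an adjusted p of 0.135.

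Among the same assembly factors were several rises with arctigenin. Lyar, a nucleolar zinc finger protein, was at 50.03 CPM in vector, 38.8 and 46.6 CPM with LPS, and 102 and 96.7 CPM with LPS and arctigenin. Its arctigenin libraries stood above all others, more than 2-fold above LPS (log2 1.22 ± 0.10 (SE), adjusted p = 1.03e-05), while LPS and vector were not distinguished (log2 −0.23, adjusted p = 0.129, and 0.0432 without LPS replicate 2). Ebna1bp2, a nucleolar scaffold protein, stood at 62.8 CPM in vector, 55.9 and 66.3 CPM with LPS, and 105 and 96.9 CPM with LPS and arctigenin, again highest with arctigenin (log2 0.73 ± 0.09 (SE), adjusted p = 0.000199) and not called with LPS (log2 −0.04, adjusted p = 0.793). Npm3, a histone-binding relative of nucleophosmin, was also highest with arctigenin (log2 0.61, adjusted p = 0.000275 with arctigenin, log2 −0.11, adjusted p = 0.397 with LPS).

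The 3 large subunit factors that fell with arctigenin were Sbds, Ddx27 and Rpf1. Sbds, which helps release an anti-association factor from the new large subunit, was at 62.1 CPM in vector, 48.9 and 50.2 CPM with LPS, and 36.2 and 35.01 CPM with LPS and arctigenin. Its arctigenin libraries were lowest (log2 −0.48 ± 0.08 (SE), adjusted p = 0.00129). The LPS difference of Sbds (log2 −0.33, adjusted p = 0.0182) was not called without LPS replicate 1 (0.102) or LPS replicate 2 (0.0699), and over curated transcripts it was 0.02 with an adjusted p of 0.947. The helicase Ddx27 fell 2.55-fold with LPS (log2 −1.35, adjusted p = 7.96e-06) and stood lower again with arctigenin (log2 −0.33, adjusted p = 0.0314), a call that did not hold without LPS replicate 1 (0.227), LPS with arctigenin replicate 1 (0.0606) or LPS with arctigenin replicate 2 (0.0619). Rpf1, a Brix domain protein that overlaps Dnase2b on the same strand, fell 2.28-fold with LPS (log2 −1.19, adjusted p = 3.54e-06). Its arctigenin difference of −0.27 on the log2 scale was −0.27, −0.27 and −0.22 without LPS replicate 1, LPS replicate 2 or LPS with arctigenin replicate 1, and was then not called (adjusted p = 0.114, 0.109 and 0.0846).

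The RNA exosome is a ring of subunits with attached nucleases. Of its 16 subunits and cofactors among the members, 11 were lower and 0 higher with LPS (median −0.59), against 24.9% and 27.1% of all genes tested. With arctigenin 6 (37.5%) were higher and 0 lower (median 0.22), against 22.8% and 22% of all genes. Exosc6, a ring subunit, had the largest fall of all members in LPS against vector. It stood at 9.20 CPM in vector, 1.57 and 2.31 CPM with LPS, and 4.84 and 3.16 CPM with LPS and arctigenin, low values with vector well above the rest (log2 −2.24 ± 0.33 (SE), adjusted p = 0.000314 with LPS). Its arctigenin difference (log2 1.04, adjusted p = 0.0199) was not called without LPS replicate 1 (0.156) or LPS with arctigenin replicate 1 (0.120). Exosc5, also of the ring, stood at 23.8 CPM in vector, 7.50 and 6.37 CPM with LPS, and 8.89 and 10.5 CPM with LPS and arctigenin and was 3.42-fold lower with LPS than in vector (log2 −1.78 ± 0.18 (SE), adjusted p = 2.49e-05). Exosc8, a further ring subunit whose gene overlaps Fam48a on the other strand, stood at 33.9 CPM in vector, 19.4 and 19.6 CPM with LPS, and 33.1 and 35.1 CPM with LPS and arctigenin. Its LPS libraries were lowest, and the arctigenin libraries bracketed the vector level within 2 CPM (log2 −0.80 ± 0.12 (SE), adjusted p = 0.000247 with LPS, log2 0.80 ± 0.10 (SE), adjusted p = 0.000136 with arctigenin).

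Among the exosome's nucleases, Dis3, the processive one, was at 77.1 CPM in vector, 41.7 and 37.8 CPM with LPS, and 41.7 and 45.5 CPM with LPS and arctigenin, low in all 4 LPS-treated libraries (log2 −0.96, adjusted p = 4.15e-05, and log2 0.13, adjusted p = 0.265 with arctigenin against LPS). Dis3 overlaps Pibf1 on the other strand, and over curated transcripts only its LPS difference was −1.09 with an adjusted p of 0.0672. Exosc10, the nuclear distributive nuclease, was lower with LPS (log2 −0.55, adjusted p = 0.00167) and was higher with arctigenin (log2 0.43, adjusted p = 0.00347), with an adjusted p of 0.0568 without LPS replicate 1. C1d, a nuclear cofactor of Exosc10, was at 28.2 CPM in vector, 30.3 and 32.9 CPM with LPS, and 55.9 and 54.3 CPM with LPS and arctigenin. The arctigenin libraries of C1d were highest (log2 0.80 ± 0.09 (SE), adjusted p = 8.53e-05), and LPS and vector were not distinguished (log2 0.16, adjusted p = 0.249).

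Against the direction of most members, 5 genes (4.39%) were higher with LPS than in vector, against 27.1% of all genes tested. Among them were Isg20, Chd7, Utp11l and Wbp11. Isg20 belongs to the 7 nucleases outside the exosome. Of these, 3 were lower and 2 (28.6%) higher with LPS, beside 24.9% and 27.1% of all genes. With arctigenin 4 were higher and 2 (28.6%) lower, beside 22.8% and 22% of all genes. Isg20, an interferon-induced exonuclease that is also antiviral, stood at 5.94 CPM in vector, 34.9 and 51.9 CPM with LPS, and 72.97 and 70.4 CPM with LPS and arctigenin. Vector was lowest, the LPS libraries were between, and both arctigenin libraries were highest, so that Isg20 rose 7.30-fold with LPS (log2 2.87 ± 0.26 (SE), adjusted p = 6.63e-05) and further with arctigenin (log2 0.72 ± 0.17 (SE), adjusted p = 0.0093). The second step was 0.47 on the log2 scale without LPS replicate 1, and its adjusted p was 0.0659 without LPS with arctigenin replicate 1.

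Chd7, a chromatin remodeller also found in the nucleolus, stood at 46.3 CPM in vector, 82.3 and 79.7 CPM with LPS, and 50.9 and 48.98 CPM with LPS and arctigenin. It was high in the LPS libraries alone (log2 0.81 ± 0.10 (SE), adjusted p = 6.57e-05 with LPS, log2 −0.70 ± 0.08 (SE), adjusted p = 7.18e-05 with arctigenin). Over curated transcripts only, which held 14.7% to 47.2% of the Chd7 counts in a library, the LPS difference of Chd7 was 0.12 (adjusted p = 0.762). The arctigenin difference of Isg20 then had an adjusted p of 0.0684.

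Utp11l, a processome protein, rose with LPS (log2 0.55, adjusted p = 0.0053), as did Wbp11, a splicing factor (log2 0.32, adjusted p = 0.0104), and over curated transcripts neither was called, with adjusted p of 0.21 and 0.143. The Wbp11 difference was also not called without LPS replicate 1 (0.0516) or LPS replicate 2 (0.0552). In counts over curated transcripts, 1 member was higher with LPS, against 17.3% of all genes.

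**Figure D4:**
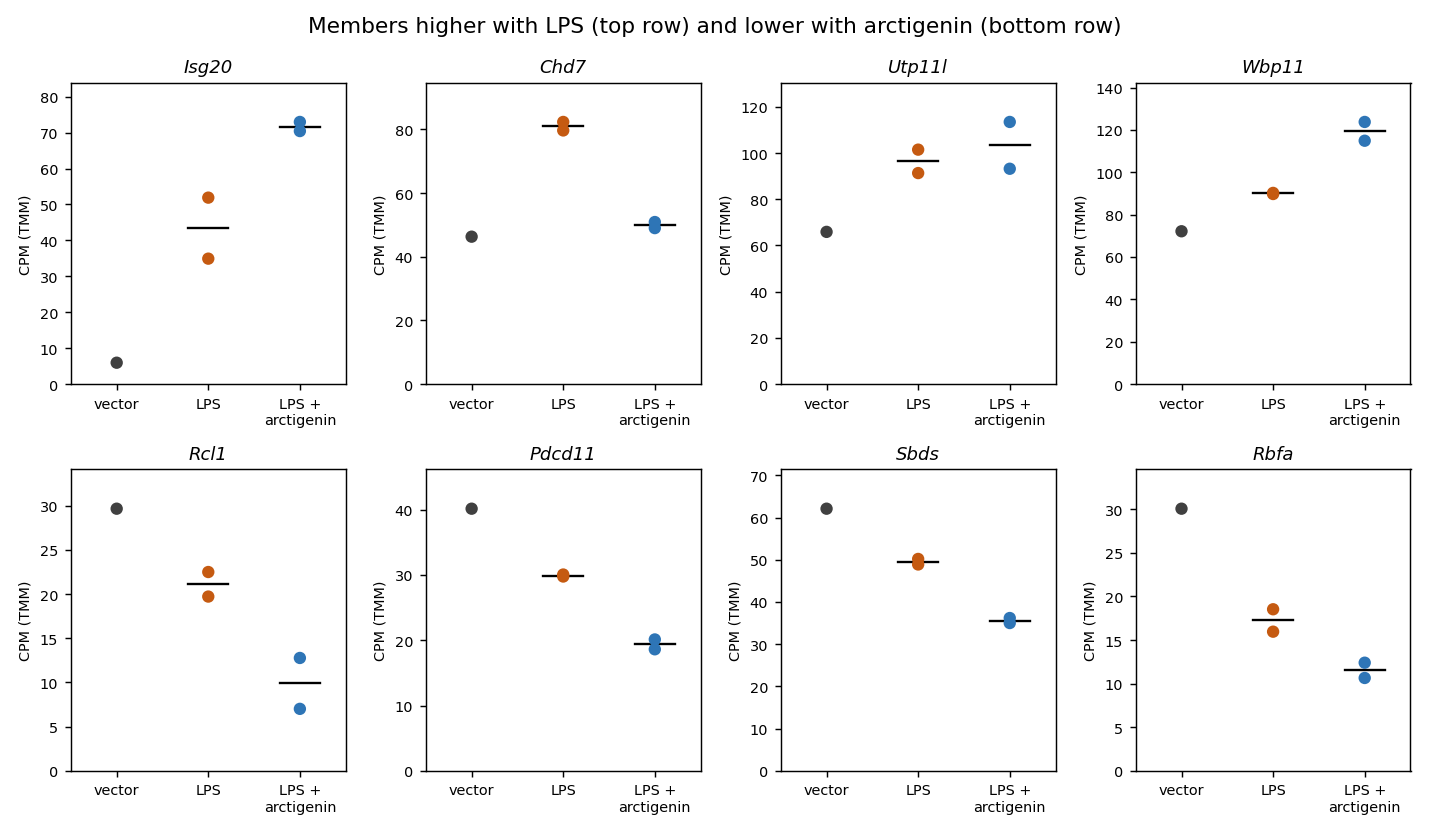
CPM in each library of 4 members that were higher with LPS than in vector (top row) and of 4 members that were lower with arctigenin than with LPS (bottom row). Points are libraries and black lines are means of 2. Chd7 is high in the LPS libraries alone, Isg20 is highest with arctigenin, and the bottom row is lowest with arctigenin.

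The 9 factors of mitochondrial rRNA had 5 lower and 0 higher with LPS (median −0.80), against 24.9% and 27.1% of all genes tested. With arctigenin 1 (11.1%) was higher and 2 (22.2%) lower (median −0.20), beside 22.8% and 22% of all genes, so the share of falls was near that of all genes. Beside vector, 6 of the 9 were lower and 0 higher with both agents, against 25.7% and 30.4% of all genes. Their median of −1.26 was the lowest class median of that comparison. Tfb2m, a mitochondrial transcription factor of the rRNA dimethylase family, was at 52.9 CPM in vector, 15.3 and 12.9 CPM with LPS, and 12.4 and 8.91 CPM with LPS and arctigenin. All 4 LPS-treated libraries were far below vector (log2 −1.90 ± 0.18 (SE), adjusted p = 1.87e-05), and the arctigenin libraries were lower than the LPS libraries without passing the threshold (log2 −0.41, adjusted p = 0.0771, and 0.00628 without LPS with arctigenin replicate 1). Rbfa, which helps mature the small mitochondrial subunit, stood at 30.1 CPM in vector, 18.5 and 15.96 CPM with LPS, and 12.4 and 10.6 CPM with LPS and arctigenin. Each group lay below the one before (log2 −0.80 ± 0.15 (SE), adjusted p = 0.00149 with LPS, log2 −0.58 ± 0.14 (SE), adjusted p = 0.00661 with arctigenin), and the second step had an adjusted p of 0.0821 without LPS replicate 1. The rRNA methyltransferase Mrm1 was at 7.01 CPM in vector, 4.51 and 4.37 CPM with LPS, and 2.24 and 3.16 CPM with LPS and arctigenin, lowest with arctigenin (log2 −0.72, adjusted p = 0.0455). Without LPS replicate 1, LPS replicate 2 or LPS with arctigenin replicate 1 this difference was −0.69, −0.74 and −0.49 on the log2 scale and was not called (adjusted p = 0.167, 0.136 and 0.205). Tfb1m, which dimethylates small subunit mitochondrial rRNA and whose gene overlaps Tiam2 and Cldn20 on the other strand, was lower with LPS (log2 −0.88, adjusted p = 0.000699). It was the class's only rise with arctigenin, with log2 0.35, adjusted p = 0.0487. Without the same libraries, in that order, it was 0.27, 0.44 and 0.26 on the log2 scale and was not called (adjusted p = 0.263, 0.0788 and 0.189).

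Among the 5 chromatin and transcription regulators, 3 were lower and 1 (20%) higher with LPS, beside 24.9% and 27.1% of all genes tested. With arctigenin 3 were higher and 1 (20%) lower, beside 22.8% and 22% of all genes. Suv39h1, a histone methyltransferase of heterochromatin, was at 24.97 CPM in vector, 13.5 and 13.9 CPM with LPS, and 36.1 and 33.5 CPM with LPS and arctigenin. Its LPS libraries were lowest and its arctigenin libraries highest, above vector (log2 −0.87 ± 0.13 (SE), adjusted p = 0.000266 with LPS, log2 1.35 ± 0.11 (SE), adjusted p = 9.5e-06 with arctigenin). The helicase Ddx17 was also highest with arctigenin (log2 0.68, adjusted p = 1.95e-05) and was not called with LPS (log2 0.16, adjusted p = 0.105). Its gene overlaps Kdelr3 on the other strand. Sirt1, a deacetylase, fell with LPS (log2 −0.68, adjusted p = 0.000422).

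The last class held 6 annotated genes without a settled place in the pathway. With LPS 3 were lower and 1 higher, against 24.9% and 27.1% of all genes tested. With arctigenin 4 were higher and 0 lower, against 22.8% and 22% of all genes. Among them Lsm6 had the largest arctigenin rise of all members. It encodes a subunit of the LSm ring, which binds the ends of small nuclear RNAs and of mRNAs in decay, and stood at 27.4 CPM in vector, 11.6 and 9.19 CPM with LPS, and 49.4 and 40.3 CPM with LPS and arctigenin. The arctigenin libraries were highest and the LPS libraries lowest, 4.31-fold apart (log2 2.11 ± 0.15 (SE), adjusted p = 7.09e-06), while LPS stood 2.63-fold below vector (log2 −1.40 ± 0.17 (SE), adjusted p = 0.000114). Pa2g4, which binds ribonucleoproteins in the nucleolus, was the most abundant member per kb in vector. It stood at 437 CPM in vector, 232 and 249 CPM with LPS, and 356 and 314 CPM with LPS and arctigenin, lowest with LPS and intermediate with arctigenin (log2 −0.86 ± 0.09 (SE), adjusted p = 2.57e-05 with LPS, log2 0.48 ± 0.07 (SE), adjusted p = 0.00061 with arctigenin).

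On mouse build mm9, 112 of the 114 members had a single GENCODE gene model. The models on the plus strand include Fbl at chr7:28954765-28964288, Nop10 at chr2:112102083-112103426 and Dkc1 at chrX:72341193-72355116. Those on the minus strand include Lsm6 at chr8:81328764-81345039 and Rrp15 at chr1:188544857-188573237. These 5 are annotated as protein-coding. The models of 38 members overlap another protein-coding gene. Overlap was taken over whole gene spans, introns included, so some of these genes may share no exon. The sources used here do not say whether counting used the strand, so reads of these 38 may be mixed with their neighbour's. Of the 74 members with a single model and no such overlap, 51 were lower and 5 higher with LPS, against 24.9% and 27.1% of all genes tested. With arctigenin 30 (40.5%) were higher and 11 (14.9%) lower, against 22.8% and 22%.

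Transcript length was known for 113 members, and genes tested were split into 3 groups of like size by it. With LPS the median change was −0.57 for the 48 members in the shortest group, −0.87 for the 42 in the middle and −0.47 for the 23 in the longest, beside −0.16, −0.03 and 0.18 over all genes of each group. With arctigenin against LPS the medians were 0.30, 0.13 and 0.12, beside 0.10, −0.04 and −0.06.

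Promoters of the members, whatever their change, were searched for the E-box CACGTG, which is bound by Myc, a transcription factor known for activating ribosome production. The motif reads the same on both strands, and it was searched in the 250 bases before each gene start in RefSeq's promoters of build GRCm38.p6, where 91 members matched. It occurred in 10 of the 91, or 10.99%, beside 930 of 9302 genes tested (9.998%) and 1854 of 27025 genes in the table (6.86%). With LPS, 7 of the 10 members with the motif fell, as did 58 of the 81 without it, against 24.9% of all genes tested. A link between the motif and the fall was not tested. The 4 sequences below are the 100 bases before the start of 4 of the 6 members that carry the motif there and fell with LPS, the other 2 being Sirt1 and Gtf2h5, and they show it at different distances from the start. Capitals mark CACGTG, and each is written on the gene's own strand: Nop2 at chr6:125131783-125131882 (plus), Exosc5 at chr7:25659053-25659152 (plus), Utp18 at chr11:93885767-93885866 (minus) and Nol11 at chr11:107189382-107189481 (minus).
Nop2: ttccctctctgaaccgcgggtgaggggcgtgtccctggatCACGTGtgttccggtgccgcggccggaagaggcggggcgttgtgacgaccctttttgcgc
Exosc5: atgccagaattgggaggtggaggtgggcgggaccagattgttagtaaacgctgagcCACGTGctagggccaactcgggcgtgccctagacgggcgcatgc
Utp18: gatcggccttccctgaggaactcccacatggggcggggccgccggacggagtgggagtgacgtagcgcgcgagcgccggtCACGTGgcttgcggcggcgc
Nol11: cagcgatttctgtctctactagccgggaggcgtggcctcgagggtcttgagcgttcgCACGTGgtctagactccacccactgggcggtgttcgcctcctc

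The changes of these 4 with LPS were −1.16, −1.78, −1.23 and −0.60 on the log2 scale, in that order (adjusted p = 2.35e-05, 2.49e-05, 4.64e-06 and 0.000806, edgeR). With arctigenin against LPS they were 0.18, 0.48, −0.08 and 0.33 (adjusted p = 0.183, 0.0392, 0.51 and 0.0116), and the calls of Exosc5 and Nol11 were lost without LPS replicate 1, at 0.0735 and 0.118. Exosc5 was also not called without LPS replicate 2 (0.218) or LPS with arctigenin replicate 2 (0.152). Myc itself was at 114 CPM in vector, 103 and 93.8 CPM with LPS, and 42.1 and 53.5 CPM with LPS and arctigenin. The LPS libraries were not distinguished from vector (log2 −0.21, adjusted p = 0.192), and both arctigenin libraries were lower (log2 −1.04, adjusted p = 0.000106). The proliferation marker Mki67 was at 261 CPM in vector, 186 and 194 CPM with LPS, and 571 and 503 CPM with LPS and arctigenin, lowest with LPS and highest with arctigenin. The part of either gene in the members' changes was not tested.

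Other genes of ribosome production that did not hold the term were also mostly lower with LPS. Of 188 listed genes tested, 120 were lower and 16 higher with LPS (median −0.59), against 24.9% and 27.1% of all genes. With arctigenin 48 (25.5%) were higher and 37 (19.7%) lower (median 0.03), near the 22.8% and 22% of all genes. By list, 11 of 17 genes of the RNA polymerase I machinery were lower and 3 higher with LPS, as were 12 and 0 of 16 nucleolar proteins, 18 and 3 of 26 assembly and export factors, 5 and 0 of 7 RNase MRP and RNase P subunits, and 13 and 2 of 22 genes of RNA polymerase III and 5S transcription. With arctigenin the nucleolar proteins had 9 higher and 3 lower (median 0.49), and the polymerase I machinery had 5 and 2 (median 0.09).

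Calls of single genes outside the term were not checked in the alternative fits. Nop56 and Nop58, the paired scaffold proteins beside Fbl in the box C/D core, were at −1.02 and −1.26 on the log2 scale with LPS (adjusted p = 2.98e-06 and 6.7e-07), and at 0.22 and −0.08 with arctigenin (adjusted p = 0.021 and 0.362, edgeR). Nufip1, a snoRNP assembly factor, rose 4.05-fold with arctigenin (log2 2.02 ± 0.10 (SE), adjusted p = 1.31e-06), from 26.97 ± 0.622 CPM (SD, n = 2) with LPS to 109 ± 13.9 CPM (SD, n = 2). Nucleolin (Ncl), an abundant nucleolar protein, had 1466 CPM in vector. Its level averaged 922 ± 67.1 CPM (SD, n = 2) in the LPS libraries and 1682 ± 29.7 CPM (SD, n = 2) in those with arctigenin (log2 −0.67, adjusted p = 6.13e-05, then log2 0.87, adjusted p = 7.5e-06). Mybbp1a, a nucleolar repressor, showed the same order with a larger second step (log2 −0.55, adjusted p = 0.000204, then log2 1.14, adjusted p = 1.72e-06). Gnl3, which encodes nucleostemin, stayed low with arctigenin (log2 −1.86, adjusted p = 6.74e-07, then log2 −0.26, adjusted p = 0.0647), and so did the assembly factor Rrs1 (log2 −1.55, adjusted p = 1.64e-05, then log2 −0.01, adjusted p = 0.968). Of the 15 ribosomal protein genes set aside by the rule, 4 (26.7%) were lower and 1 higher with LPS, beside 24.9% and 27.1% of all genes. With arctigenin 13 were higher and 0 lower (median 0.32), beside 22.8% and 22%. Reads of such genes can, however, be divided with their pseudogenes.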

How the data were processed

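RNA-seq libraries of RAW264.7 cells were analysed from 1 deposited table with an estimated count for each of 75959 RefSeq transcripts. The submitters' processing notes name Trimmomatic, HISAT2, Cufflinks, HTSeq, DESeq and build mm9; versions, order, strand setting and the tool that made the values are not given in the sources used here. These deposited estimated counts were added up for each gene symbol, then rounded. Predicted transcripts share these sums, and reads divided between near-identical copies or overlapping genes make such genes uncertain.

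edgeR 4.0.16 in R 4.3.3 fitted all 5 libraries with group as the only term (TMM, filterByExpr with a minimum count of 10 and minimum total of 15, robust estimateDisp and glmQLFit, glmQLFTest). It kept 11575 genes. The residual degrees of freedom were 2, and the biological coefficient of variation was 7.13%. TMM factors were 1.16 for vector and 0.942 to 0.981 for the others. P-values were adjusted by Benjamini-Hochberg over all genes tested, and a gene was called under 0.05. Vector, with 1 library, was taken to have the spread of the other groups. A standard error is the size of the log2 change divided by the root of its F statistic. CPM values are TMM-scaled. The fit was tested on simulated data with changes between LPS and LPS with arctigenin only, which did not test the comparisons with vector.

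The members, role classes and other lists were chosen with earlier results of these data known. Members were named if they were key genes, among the 10 largest called rises or falls of a comparison with a mean log2 CPM of at least 2, or among the 3 largest changes of a role class; Emg1, Wbscr22, Naf1, Pih1d1, Ebna1bp2, Npm3, Ddx17, Wdr43, Utp18 and Nol11, and Ncl, Mybbp1a, Nufip1, Gnl3 and Rrs1 outside the term, include genes chosen after their values were seen. The values of 1 member are not reported here. Transcript lengths and positions came from GENCODE vM1 on mm9. Alternatives were RLE size factors, no count filter, DESeq2 1.42.0, limma-voom (limma 3.58.1), curated transcripts only, a length and GC correction, leaving out each treated library, a replicate block and the 4 treated libraries alone.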

Additional observations from a re-analysis of the deposited data

How the results depend on the processing

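Among the counts of members called, most stayed within 1.5 times of the value given under every alternative run. Leaving out either LPS library moved both counts of arctigenin against LPS further than that. The other exceptions came from DESeq2 and curated transcripts. Over curated transcripts, 1 member was higher with LPS. With arctigenin against LPS, 29 (DESeq2) and 24 (curated) were higher, and 7 and 6 lower. With both agents against vector, 9 were higher over curated transcripts. The share of all genes was 17.3%, 17.7% and 12.6%, 16.8% and 10.6%, and 20.5%, in that order. The curated alternative drops the predicted transcripts, and the cause of these differences was not tested. Leaving out 1 treated library gave 26 to 46 higher and 5 to 13 lower for arctigenin against LPS, 66 to 84 lower and 4 to 5 higher for LPS against vector, and 58 to 63 lower and 12 to 13 higher for both agents against vector. In these fits the share of all genes ran from 14.6% to 22.7% higher and 13.4% to 22.2% lower, from 17.5% to 27.8% lower and 21.7% to 29.2% higher, and from 22.8% to 25.7% lower and 28.2% to 30.5% higher, in that order. The median change of the members ranged from −0.70 to −0.60, from 0.18 to 0.20 and from −0.49 to −0.41 in these 3 comparisons. Of single genes, Sbds with LPS turned from −0.33 to 0.0188 over curated transcripts, and Chd7 with both agents against vector turned from 0.11 to −1.28 over curated transcripts and −0.27 with the length and GC correction. For single genes, fits were compared for members with a difference given above, except Wbscr22 and Ddx17. Genes outside the term, Myc and Mki67 among them, were not compared. Of the arctigenin differences named in the text and compared, DESeq2 did not call those of Gar1, Nol6, Rrp15, Pes1, Ddx27, Rpf1, Exosc5, Exosc6, Mrm1 and Tfb1m, with adjusted p from 0.0617 to 0.219. Curated transcripts did not call those of Bop1, Dkc1, Pih1d1, Nol6, Rrp15, Ddx27, Exosc5, Exosc6, Isg20, Rbfa, Mrm1 and Tfb1m, with adjusted p from 0.0577 to 0.789. Of the LPS differences, DESeq2 did not call those of Bop1, Naf1, Pdcd11 and Sbds, with adjusted p from 0.0761 to 0.183. Besides those given above, curated transcripts did not call those of Bop1, Naf1 and Pdcd11 (adjusted p = 0.0895, 0.153 and 0.0699, edgeR). The length and GC correction did not call the LPS differences of Naf1 and Sbds (adjusted p = 0.0814 and 0.195, edgeR). Nor did it call the arctigenin differences of Gar1, Rrp15, Exosc5, Mrm1 and Tfb1m (adjusted p from 0.0544 to 0.243). The correction planned on deposited transcript lengths was not run, because the table gives no lengths; the one with GENCODE lengths was chosen after seeing the data.

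Whether the replicate numbers in the titles pair the samples could not be settled. Deviations of same-numbered libraries correlated at −0.00842 across genes, but with 2 libraries in each group this cannot exclude pairing. With a replicate block, 43 members were higher and 14 lower with arctigenin against LPS, against 24.4% and 23.8% of all genes.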
